A study of Mus musculus with 27 samples.

Results

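Lacrimal glands taken 4 days after an injection of interleukin 1 alpha (IL-1α) were compared directly with glands taken 3 days after the same injection. The 6 libraries, 3 for each day, are 6 of the 26 libraries with values in a series of 27 samples that covers uninjured glands, days 1 to 5, day 7 and day 14 after IL-1α, and day 14 after saline. Both groups were wild-type female BALB/c mice that had received 1 µg of IL-1α in the gland, and they differed in the labels only in the day of excision. The mice were 8 to 10 weeks old per the labels, although the methods of the study give an older range, and each library is 1 mouse. The comparison asks which genes changed between these days, which the study places in the repair phase, and genes in which the day 3 libraries stand apart from the libraries of all other days were set aside and are described on their own.

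The lacrimal gland is an exocrine gland whose acini secrete tear proteins into a duct tree supported by myoepithelial cells and a thin stroma of fibroblasts, vessels and immune cells. IL-1α is an inflammatory cytokine that is known in this gland to kill acinar cells and draw in leukocytes, after which progenitor and myoepithelial cells divide and the tissue is restored. Repair of an epithelial organ usually brings a phase of cell division and a phase in which fibroblasts lay down and remodel collagen, elastic fibres and proteoglycans. The RNA is of whole glands, so a change in the number of cells of a type and a change in the RNA of each such cell cannot be told apart in any of the results below.

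Values are RSEM estimated counts divided by a factor per library, called normalized expression here. By the spacing of low values the day 4 libraries hold 9.5 to 11.2 M estimated counts and the day 3 libraries 9.5 to 10.5 M, and normalized totals were 9.15 to 12.03 M at day 4 and 9.74 to 10.62 M at day 3. Obp1a, an odorant-binding protein gene that marks this gland, was at 1047760 to 1822870 in day 4 libraries and 998263 to 1381060 in day 3 libraries. Salivary gland RNA was uneven, with Bpifa2 at 10902, 156 and 270587 in day 4 replicates 1, 2 and 3 and at 40.0, 1232020 and 23799 in day 3 replicates 1, 2 and 3, while the skeletal muscle genes Acta1 and Ckm did not pass 21.4 in any of the 6. Day 4 replicate 1 was left out of testing by the study for its place in a principal component plot. It is kept here, since the comparison is of all 6 libraries, and counts with the study's exclusions (this library, day 2 replicate 3 and day 7 replicate 1) stand beside the main counts.

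Of 13908 genes tested with limma, 65 were higher at day 4 than at day 3 and 39 were lower, where a call needed a Benjamini-Hochberg adjusted p no higher than 0.05 together with a 2-fold change. These are 0.467% and 0.28% of the genes tested, with 1873 genes at an unadjusted p under 0.05. With the study's exclusions 137 genes were higher (0.985%) and 40 lower (0.288%), and 55 and 32 of the main calls were shared. A count of 133 higher and 45 lower was reached with all day 4 libraries kept and only day 2 replicate 3 and day 7 replicate 1 left out, an alternative chosen after seeing the data. Without day 3 replicate 1 the genes higher at day 4 numbered 28, and without day 4 replicate 2 they numbered 41. By correlation over the 1000 most variable genes, the library nearest to day 3 replicate 1 was day 0 replicate 2 (0.778). Nearest to day 3 replicate 2 was day 4 replicate 3 (0.815), and nearest to day 3 replicate 3 was day 3 replicate 2 (0.798). With each library scaled to its total 26 genes were higher and 33 lower, a scaling that moved the median gene by -0.04 on the log2 scale. All 3 day 4 libraries lay above all 3 day 3 libraries in 8.58% of genes tested and below them in 7.39%.

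Setting aside genes that stand apart at day 3 removed 11 of the 65 higher genes and 22 of the 39 lower genes, which leaves 54 and 17. Genes kept can still be unusual at day 3. Cpa3, Arntl, Npas2, Zbp1, Insig1 and Zbtb16 passed limma's contrast of day 3 against the groups other than days 3 and 4. They were kept because their day 3 libraries overlapped some library of those groups. Others, Col3a1 and Fbn1 among them, did not pass that contrast (limma's adjusted p = 0.268 and 0.275). Cma1 passed its adjusted p (limma, 0.00898) and not the fold, with a log2 fold change of -0.91. Of the 54, 28 had been lower at day 3 than at day 2 and 25 were higher at day 4 than at day 0, beside 7.69% and 5.31% of all genes tested. These 2 comparisons share the day 3 or the day 4 libraries with the main one. Genes of the extracellular matrix, interferon response, complement system and mast cells were among the 54. Genes of lipid supply, a clock gene and several secreted peptide genes were among the 17.

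**Figure D1:**
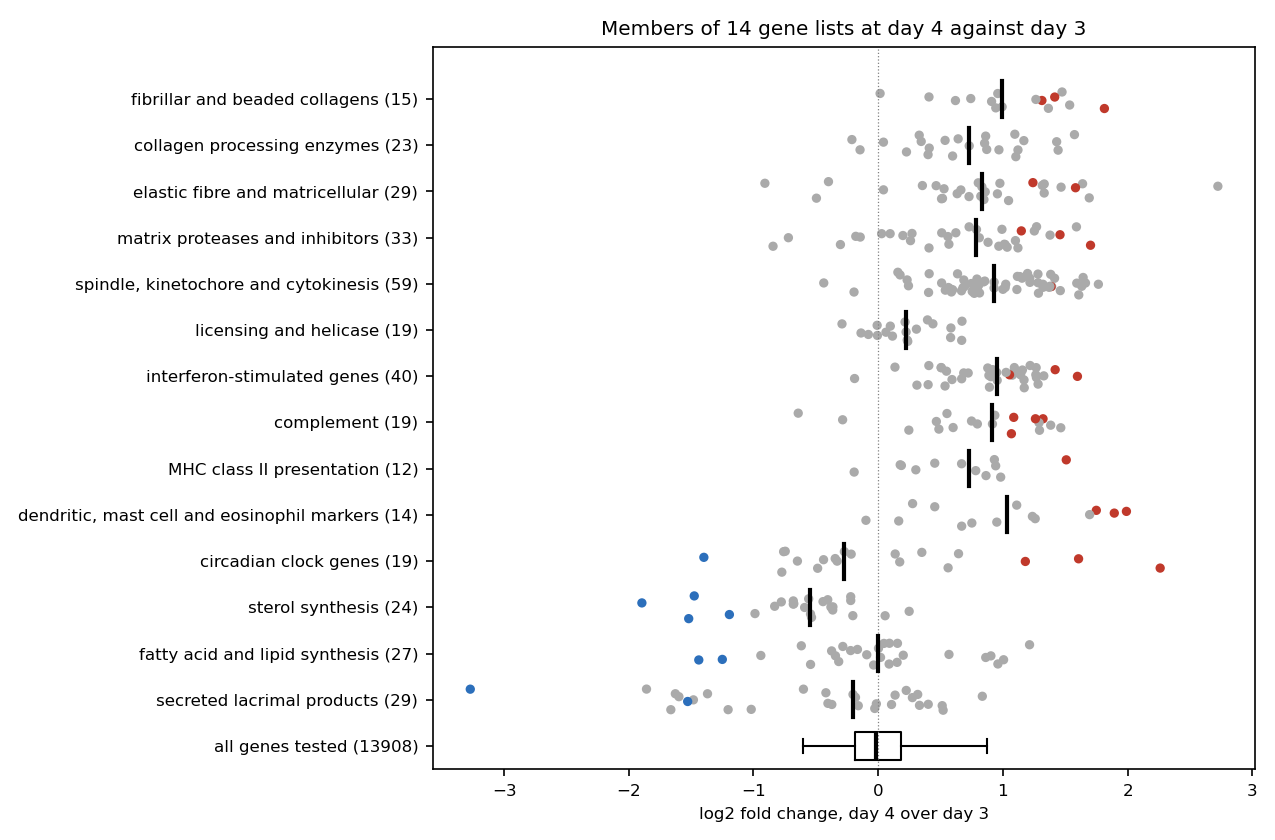
Log2 fold change of day 4 over day 3 (horizontal axis) for the members of 14 gene lists, 1 point a gene, red where higher and blue where lower by limma's test, with the list median as a black bar and the number of genes in brackets. The box holds all 13908 genes, with whiskers at percentiles 5 and 95. Fibrillar collagens have a median of 0.99 and sterol synthesis genes one of -0.55, while all genes have one of -0.02.

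Matrix genes had positive changes in 125 of 143 members at day 4 against day 3, although few passed the test one by one. Of all 13908 genes tested 6540 had a positive change and 0.467% rose. Over 6 lists of collagens, basement membrane chains, collagen-processing enzymes, elastic fibre and matricellular genes, proteoglycans and matrix proteases, 9 of 143 tested genes rose and 0 fell (35 and 0 with the study's exclusions). Their median log2 fold change was 0.73, beside -0.02 for all genes. In 68 of the 143 (47.6%) the 3 libraries of day 4 lay above those of day 3, beside 8.58% of all genes. Of 15 fibrillar and beaded collagens 3 rose (9 with the study's exclusions), with a median of 0.99 that was 0.65 without day 3 replicate 1 and 1.36 without day 4 replicate 1.
Col3a1 (ENSMUSG00000026043.14, chr1:45311538-45349706 of GRCm38), which encodes the chain of type III collagen typical of early repair tissue, had a normalized expression of 5058, 9805 and 7853 in day 4 libraries and 1091, 2298 and 3568 in day 3 libraries. The groups did not overlap, and replicate 1 was the lowest library of each day. The log2 fold change was 1.81 ± 0.46 (SE, limma's adjusted p = 0.0452), a call that held in 6 of 17 alternatives, with adjusted p-values between 0.00438 and 0.237. Col14a1, a collagen that associates with fibrils, stood at 407, 552 and 475 in day 4 libraries against 113, 235 and 259 in day 3 libraries (log2 fold change 1.31, limma's adjusted p = 0.028). Col5a3, a minor chain of fibrils, was at 131, 313 and 166 in day 4 libraries and 43.7, 75.6 and 105 in day 3 libraries (1.42, limma's adjusted p = 0.0412).
The major type I chain genes did not pass in the comparison of all 6 libraries. Col1a1 had 762, 2174 and 1467 in day 4 libraries and 303, 516 and 635 in day 3 libraries, a log2 fold change of 1.54 (limma's adjusted p = 0.121, and 0.00709 with the study's exclusions). Col12a1, a fibril-associated collagen named in the study, was at 27.9 to 36.7 in day 4 libraries and 22.2 to 26.5 in day 3 libraries, with a change of 0.41 (limma's adjusted p = 0.768). It reached 93.2 to 314 in the day 5 libraries.

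Of 29 elastic fibre and matricellular genes 2 rose (9 with the study's exclusions), with a median of 0.83. Fbn1, which encodes the fibrillin of microfibrils, was at 489, 881 and 775 in day 4 libraries and at 136, 255 and 356 in day 3 libraries, a log2 fold change of 1.58 ± 0.35 (SE, limma's adjusted p = 0.021). Mfap5, a protein bound to such microfibrils, was at 93.9, 147 and 147 in day 4 libraries against 37.2, 63.4 and 63.2 in day 3 libraries (1.24, limma's adjusted p = 0.0306). No library of day 3 reached a library of day 4 in either gene. Ogn, a small leucine-rich proteoglycan, was at 222 to 299 in day 4 libraries and 79.9 to 191 in day 3 libraries (1.02, limma's adjusted p = 0.0384), a call lost with the study's exclusions (adjusted p = 0.0585).
In the list of matrix proteases and inhibitors 3 of 33 tested genes rose (9 with the study's exclusions). Adamts12, a secreted metalloprotease, stood at 71.1, 77.4 and 82.4 in day 4 libraries and 19.5, 30.0 and 34.7 in day 3 libraries, a log2 fold change of 1.46 ± 0.30 (SE, limma's adjusted p = 0.0105). Fap, a membrane protease of activated fibroblasts, was at 50.8, 69.2 and 59.5 in day 4 libraries against 17.7, 34.5 and 29.6 in day 3 libraries (1.15, limma's adjusted p = 0.0343), a call that held in 8 of 17 alternatives. Mmp3, a stromelysin, also rose but is a gene set apart at day 3.
Outside the lists, Sfrp4, a secreted antagonist of Wnt signals, was among the 10 largest rises once genes set apart at day 3, predicted genes and pseudogenes were left out. It was at 67.3, 70.1 and 105 in day 4 libraries and at 3.72, 14.5 and 27.5 in day 3 libraries (2.65 ± 0.56 SE, limma's adjusted p = 0.0139). Tnfaip6, whose product binds and crosslinks hyaluronan in inflamed tissue, was at 15.2, 32.6 and 18.9 in day 4 libraries against 1.86, 2.22 and 7.14 in day 3 libraries (2.39, limma's adjusted p = 0.0192). Has2, a hyaluronan synthase gene named in the study, overlapped between the days, with 5.08 to 22.8 in day 4 libraries and 7.78 to 11.2 in day 3 libraries (limma's adjusted p = 0.639).
Of 25 fibroblast and activation markers 0 rose at these thresholds (3 with the study's exclusions), with a median of 0.64, and their summed expression was 7013 to 8337 in day 4 libraries and 4702 to 5714 in day 3 libraries. In 13 of the 25 (52%) all day 4 libraries lay above all day 3 libraries, beside 8.58% of all genes. Fap, which rose, is not counted in this list. Vim was at 510.2 to 726 in day 4 libraries and 325 to 568 in day 3 libraries, and Zeb2 at 105 to 139.7 in day 4 libraries and 64.1 to 96.8 in day 3 libraries (limma's adjusted p = 0.491 and 0.24). The part of fibroblast number in the change of matrix genes was not tested.

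**Figure D2:**
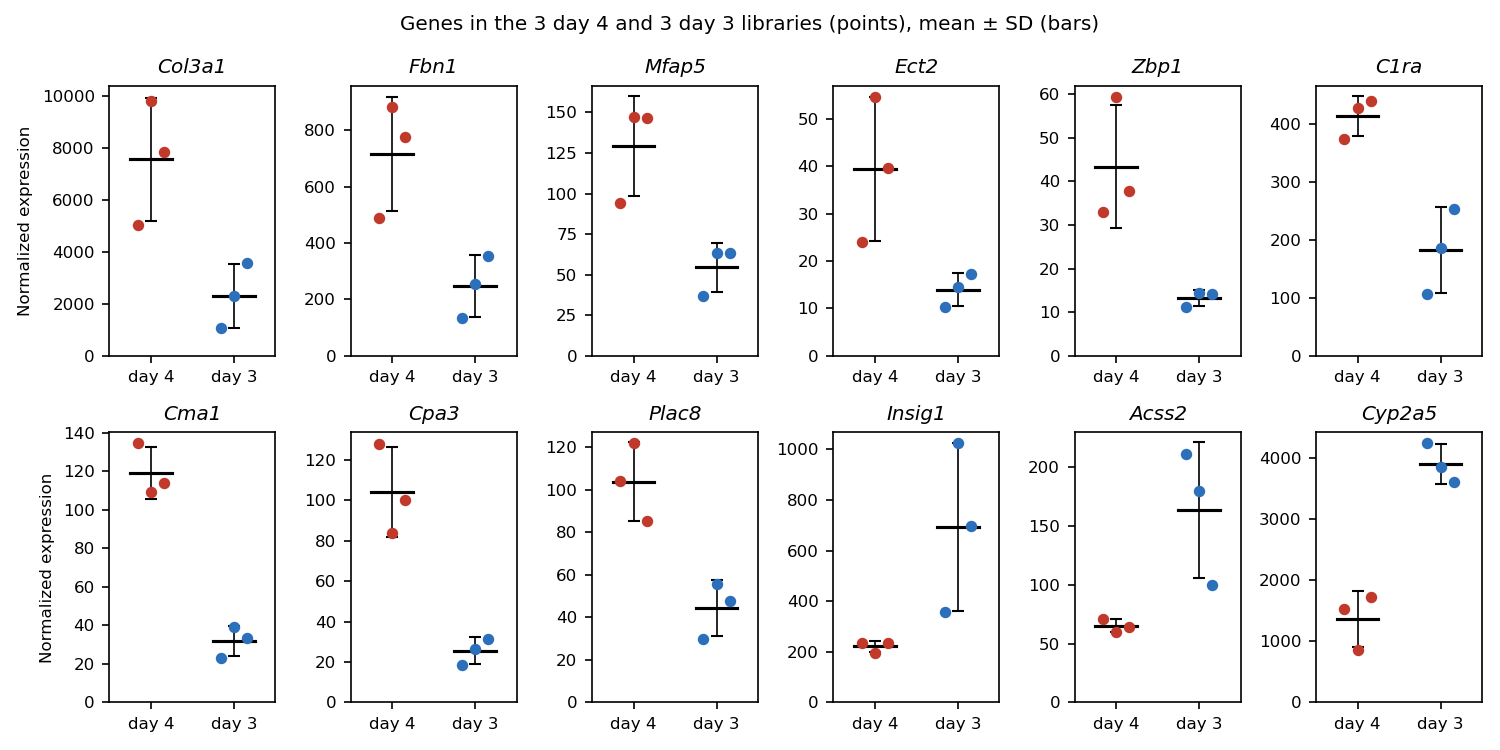
Normalized expression of 12 genes (vertical axes, each from 0) in the 3 libraries of day 4 (red, left) and the 3 of day 3 (blue, right) as points, with the mean as a bar and the SD as whiskers. In all 12 the points of the days do not overlap, 9 genes being higher at day 4 and 3 (Insig1, Acss2 and Cyp2a5) lower.

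Genes of mitosis had positive changes in nearly every member, while 1 passed the test. Of 59 genes of the spindle, kinetochore and cytokinesis 57 had a positive change and 1 rose (2 with the study's exclusions), and the median log2 fold change was 0.93. In 8 of the 59 (13.6%) all day 4 libraries lay above all day 3 libraries. That share was 8.58% over all genes tested, of which 0.467% rose. The mean log2(value + 1) of the list was 3.98, 5.49 and 4.90 in day 4 replicates 1, 2 and 3, and 2.69, 4.34 and 4.52 in day 3 replicates 1, 2 and 3. Day 4 replicate 1 thus lay below day 3 replicates 2 and 3. Without day 3 replicate 1 the median was 0.32, and without day 4 replicate 1 it was 1.33. Genes of replication licensing (19 tested, median 0.22), DNA synthesis (29, median 0.12) and cyclins and cell cycle regulators (32, median 0.38) had 0 calls in either direction, also with the study's exclusions.
Ect2, the exchange factor that starts the contractile ring in cytokinesis, was the member that rose. It was at 24.1, 54.6 and 39.7 in day 4 libraries and 10.2, 14.5 and 17.3 in day 3 libraries, a log2 fold change of 1.39 ± 0.35 (SE, limma's adjusted p = 0.0454), a call that held in 8 of 17 alternatives. The days did not overlap. Tpx2, which activates the Aurora A kinase on the spindle, was at 29.2, 99.4 and 65.5 in day 4 libraries against 10.2, 28.9 and 40.8 in day 3 libraries (1.28, limma's adjusted p = 0.122, and 0.023 with the study's exclusions). Mki67, a marker of dividing cells, overlapped, with 138, 419.6 and 258 in day 4 libraries and 49.2, 195 and 222 in day 3 libraries (0.93, limma's adjusted p = 0.331). Top2a, a topoisomerase needed to separate chromosomes, had a change of 0.69 and Uhrf1, which maintains DNA methylation at replication, one of 0.54 (limma's adjusted p = 0.231 and 0.455).
Many mitotic genes carry in their promoter a CHR element, read by the MuvB complex, and CCAAT boxes, read by NF-Y. The promoter of Ect2 (RefSeq, GRCm38.p6, chr3:27153829-27154128, minus strand, 250 bases before to 50 after the start, 1 of 2 windows in the table) is shown for that reason, with CHR (TTTGAA or TTCGAA) and CCAAT in capitals.
Ect2: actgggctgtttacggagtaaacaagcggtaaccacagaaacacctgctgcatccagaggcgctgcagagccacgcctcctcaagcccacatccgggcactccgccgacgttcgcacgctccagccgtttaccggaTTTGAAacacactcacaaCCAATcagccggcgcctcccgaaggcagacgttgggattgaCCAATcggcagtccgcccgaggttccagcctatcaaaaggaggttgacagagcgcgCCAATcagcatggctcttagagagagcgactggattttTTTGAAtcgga
It holds 2 CHR matches and 3 CCAAT matches, searched on both strands, and no match to the E2F core GCGGGAA. Of 32851 promoter windows of this length 19.2% hold a CHR match, 37.4% a CCAAT match and 4.6% an E2F match.

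**Figure D3:**
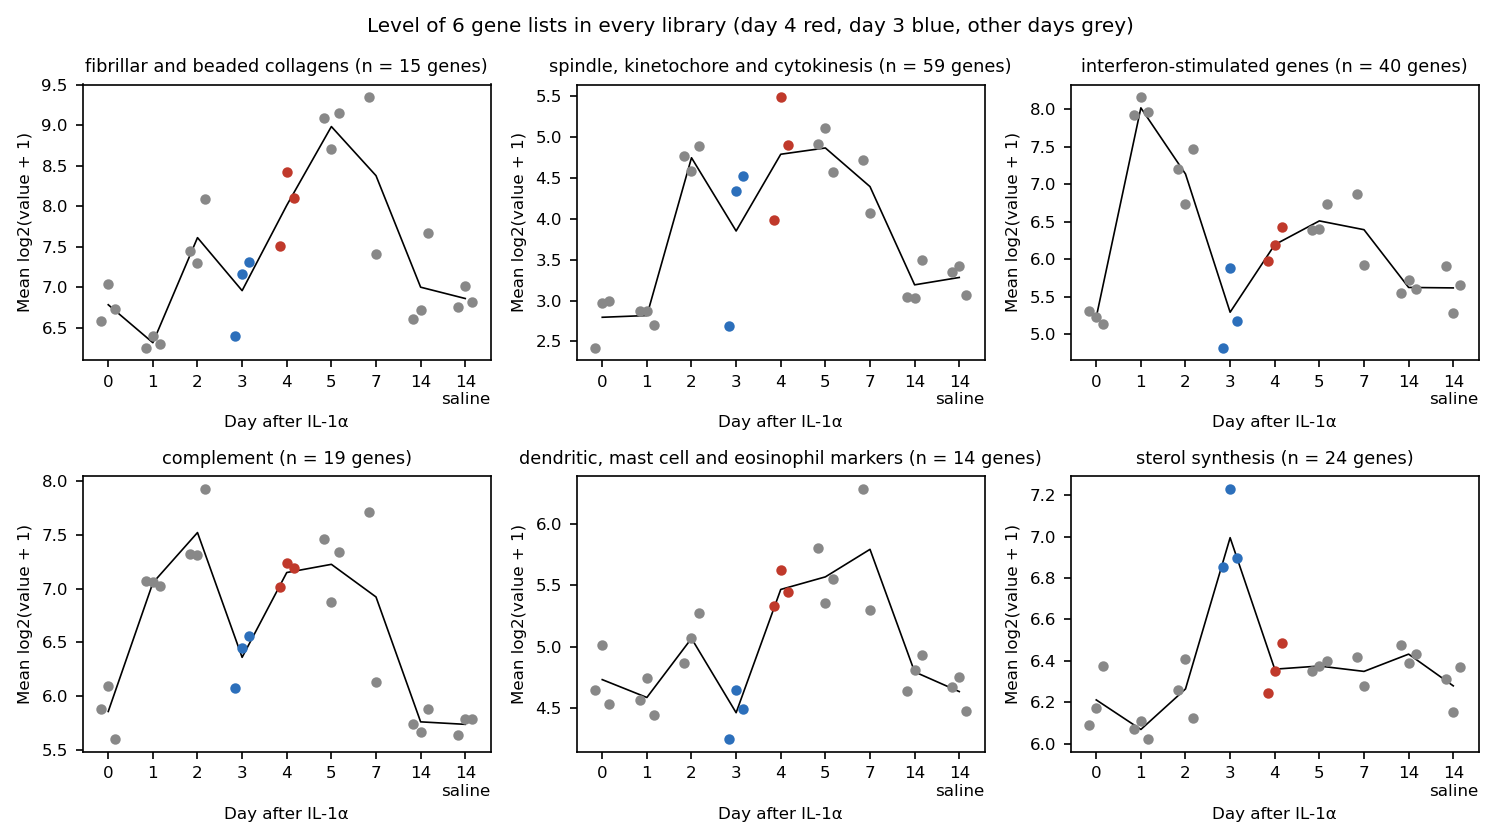
Mean log2(value + 1) over the members of 6 gene lists (vertical axes) in every library, by day after IL-1α (horizontal axis, with saline at day 14 last). Points are libraries, red for day 4 and blue for day 3, and the line joins group means. Day 4 lies above day 3 without overlap for collagens, interferon-stimulated genes, complement and the mast cell list, and below it for sterol synthesis, while the mitotic list overlaps.

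Interferon-stimulated genes, which encode antiviral effectors and sensors, had a positive change in 39 of 40 members, of which 3 rose (11 with the study's exclusions) and 0 fell. Of all 13908 genes tested 6540 had a positive change and 0.467% rose. The median log2 fold change was 0.95, 0.65 without day 3 replicate 1 and 1.35 without day 3 replicate 2. In 19 of 40 (47.5%) all day 4 libraries lay above all day 3 libraries, beside 8.58% of all genes. Zbp1, a sensor of left-handed nucleic acid, was at 33.0, 59.5 and 37.7 in day 4 libraries and 11.2, 14.5 and 14.3 in day 3 libraries, a log2 fold change of 1.60 ± 0.34 (SE, limma's adjusted p = 0.0152). Dhx58, a regulator of the RIG-I pathway, was at 44.4, 37.5 and 57.5 in day 4 libraries against 14.9, 24.5 and 12.2 in day 3 libraries (1.42, limma's adjusted p = 0.0144). In both genes each day 4 library lay above every day 3 library. Isg15, a ubiquitin-like protein, overlapped, with 20.3, 39.1 and 31.8 in day 4 libraries and 6.50, 24.5 and 9.18 in day 3 libraries (1.28, limma's adjusted p = 0.106). The third called member, Cmpk2, is set apart at day 3 and lost its call with the study's exclusions. In the interferon-gamma list of GTPases and targets 0 of 20 rose (1 with the study's exclusions), with a median of 0.71. Zbp1 was higher at earlier days, at 179 to 272 in day 1 libraries and 94.2 to 167 in day 2 libraries, and its lowest levels after injury before day 14 were those of day 3.

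In the complement list, which holds the classical and alternative pathways and their inhibitors, 4 of 19 tested members rose (7 with the study's exclusions) and 0 fell. The median was 0.92, and in 12 of 19 (63.2%) all day 4 libraries lay above all day 3 libraries. That share was 8.58% over all genes tested, of which 0.467% rose. C1ra and C1s1, which encode the proteases of the C1 complex, had log2 fold changes of 1.26 and 1.09 (limma's adjusted p = 0.0162 and 0.0279). C1ra was at 374 to 439 in day 4 libraries and 107 to 254 in day 3 libraries, and C1s1 at 528 to 649 in day 4 libraries and 196 to 373 in day 3 libraries. Serping1, which inhibits these proteases, was at 562 to 637 in day 4 libraries and 211 to 346 in day 3 libraries (1.07, limma's adjusted p = 0.0488), a call that held in 4 of 17 alternatives. C3, the central component, was at 2443 to 3295 in day 4 libraries and 1142 to 1741 in day 3 libraries (0.92, limma's adjusted p = 0.17).

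Of the called genes followed through the 17 alternatives, Cma1 and Cpa3 of mast cells kept their call in all. So did Idi1, Shisa7, Mup10, Zfp965, Zfp973, Gm37917 and Gm38226, which are set apart at day 3. In the list of dendritic cell, mast cell and eosinophil markers 3 of 14 tested members rose (3 with the study's exclusions). All 3 encode proteases of mast cell granules. In 6 of the 14 (42.9%) all day 4 libraries lay above all day 3 libraries. That share was 8.58% over all genes tested, of which 0.467% rose. Cma1, the chymase gene (ENSMUSG00000022225.6, chr14:55941451-55944675 of GRCm38), was at 135, 109 and 114 in day 4 libraries and 23.2, 38.9 and 33.7 in day 3 libraries, a log2 fold change of 1.89 ± 0.27 (SE, limma's adjusted p = 0.000296). Cpa3, the mast cell carboxypeptidase, was at 128, 83.9 and 100.2 in day 4 libraries against 18.6, 26.7 and 31.6 in day 3 libraries (1.99, limma's adjusted p = 0.00224). Each day 4 library held more than the highest day 3 library in both genes. Mcpt4, another chymase, was at 83.1 to 95.2 in day 4 libraries and 15.8 to 34.7 in day 3 libraries (1.75, limma's adjusted p = 0.0105). The tryptase gene Tpsb2 was at 37.7 to 59.7 in day 4 libraries and 14.9 to 26.7 in day 3 libraries (1.11, limma's adjusted p = 0.0829). Kit, the stem cell factor receptor of mast cells and other cells, was at 138 to 176 in day 4 libraries and 103 to 149 in day 3 libraries (0.28, limma's adjusted p = 0.61). Uninjured glands held Cma1 at 53.3 to 79.0, between the days compared. Against uninjured glands Cpa3 and Cma1 were lower at day 3 (-1.24 and -1.02, limma's adjusted p = 0.035 and 0.0297). At day 4 neither passed both thresholds (0.75 and 0.88, limma's adjusted p = 0.159 and 0.04). Mcpt4 did not pass on either day.

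Other immune lists had few calls. Of all genes tested 0.467% rose. All day 4 libraries lay above all day 3 libraries in 16 of 29 macrophage and monocyte markers (55.2%). The same held for 9 of 12 MHC class II genes (75%) and 2 of 12 neutrophil markers (16.7%), beside 8.58% of all genes. Of 29 macrophage and monocyte markers 26 had a positive change and 1 rose, Plac8, a gene of inflammatory monocytes, at 104, 122 and 85.3 in day 4 libraries against 29.7, 55.6 and 47.9 in day 3 libraries (1.24, limma's adjusted p = 0.00905). Of 12 MHC class II presentation genes 1 rose, H2-DMb2, a chain of the peptide exchange factor, at 26.7 to 36.1 in day 4 libraries and 6.78 to 15.3 in day 3 libraries (1.51, limma's adjusted p = 0.00905). Of 23 B and plasma cell markers 1 rose, Ms4a1, the CD20 gene, at 36.8, 10.6 and 13.9 in day 4 libraries and 4.65, 0 and 6.12 in day 3 libraries (limma's adjusted p = 0.0384), a call lost with the study's exclusions (0.121). The immunoglobulin segment Igkv6-23 was at 45.7, 45.6 and 2.98 in day 4 libraries and listed at 0 in all day 3 libraries (limma's adjusted p = 0.038), a call that held in 3 of 17 alternatives. Neutrophil markers and T and NK cell markers had 0 calls. The 12 neutrophil genes had a median of -0.22, which was -0.50 without day 4 replicate 2 and -0.0020 without day 4 replicate 1, while their summed expression was 9399 to 12166 in day 4 libraries and 6404 to 9386 in day 3 libraries. The 16 T and NK cell genes had a median of 0.61. Il33, an alarmin of stromal and epithelial cells chosen after its values were seen, was at 215, 214 and 208 in day 4 libraries and 52.0, 72.3 and 107 in day 3 libraries (1.51 ± 0.27 SE, limma's adjusted p = 0.00318).

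Of 26 endothelial markers 2 rose, beside 0.467% of all genes tested. In 8 of the 26 (30.8%) all day 4 libraries lay above all day 3 libraries, beside 8.58% of all genes. Angpt2, a ligand that loosens vessels during remodelling, was at 26.7, 13.8 and 17.9 in day 4 libraries against 6.50, 2.22 and 7.14 in day 3 libraries (1.77, limma's adjusted p = 0.00572). Aplnr, the apelin receptor of sprouting vessels, was at 41.7 to 47.3 in day 4 libraries and 7.43 to 22.2 in day 3 libraries (1.75, limma's adjusted p = 0.0497), a call that held in 5 of 17 alternatives. The median of the list was 0.21.

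Clock genes changed in opposed directions. The core clock is a loop in which Arntl (Bmal1) with Clock or Npas2 drives the Per and Cry genes, whose products repress it, while ROR and REV-ERB factors act on Arntl and the D-box factors Tef, Dbp and Nfil3 act on Per genes. Of 19 genes 3 rose, Arntl, Npas2 and Nfil3, and 1 fell, Per3, with the same counts under the study's exclusions. Over all genes tested 0.467% rose and 0.28% fell. All day 4 libraries lay above all day 3 libraries in 5 of 19 (26.3%) and below them in 5 of 19 (26.3%). Over all genes these shares were 8.58% and 7.39%. Arntl (ENSMUSG00000055116.7, chr7:113207465-113314126 of GRCm38) was at 146, 189.8 and 107 in day 4 libraries and 49.2, 32.2 and 63.2 in day 3 libraries, a log2 fold change of 1.61 ± 0.25 (SE, limma's adjusted p = 0.00083). Npas2 was at 29.2, 43.2 and 19.8 in day 4 libraries against 4.65, 10.0 and 3.06 in day 3 libraries (2.26, limma's adjusted p = 0.00194). Both partners were higher in each day 4 mouse than in any day 3 mouse. Nfil3, a repressor at D-boxes, was at 144 to 223 in day 4 libraries and 70.0 to 90.8 in day 3 libraries (1.18, limma's adjusted p = 0.0136). Per3 was at 47.0, 57.9 and 93.3 in day 4 libraries and 115, 222 and 187 in day 3 libraries, a log2 fold change of -1.40 ± 0.26 (SE, limma's adjusted p = 0.00567).
Tef and Nr1d2 (REV-ERB beta), named after their values were seen, passed the adjusted p but not the fold, at -0.75 and -0.77 (limma's adjusted p = 0.00935 and 0.0279). Clock, at 277 to 404 in day 4 libraries and 261 to 358 in day 3 libraries, and Per2 did not pass (limma's adjusted p = 0.692 and 0.825). Across the series Arntl was lowest at day 1, at 7.41 to 16.2, reached at most 32.5 at day 2, and was 168 to 255 in uninjured glands. The hour of excision is not given in the sources used here, so a shift of clock phase and a difference in hour cannot be told apart.
The promoter of Arntl (RefSeq, GRCm38.p6, chr7:113207261-113207560, plus strand, 1 of 2 windows) is shown for the ROR elements (TAGGTNA, in capitals) through which ROR and REV-ERB factors are known to act on this gene. That of Per3 (chr4:151044616-151044915, minus strand) is shown for D-boxes (TTANNTAA, in capitals), the elements bound by Tef and Nfil3. Both genes were chosen for print after their values were seen.
Arntl: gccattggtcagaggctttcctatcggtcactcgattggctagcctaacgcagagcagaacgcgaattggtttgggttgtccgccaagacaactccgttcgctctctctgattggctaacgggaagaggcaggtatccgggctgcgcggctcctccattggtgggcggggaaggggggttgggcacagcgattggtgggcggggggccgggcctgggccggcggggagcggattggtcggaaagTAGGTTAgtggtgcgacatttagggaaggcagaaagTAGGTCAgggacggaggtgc
Per3: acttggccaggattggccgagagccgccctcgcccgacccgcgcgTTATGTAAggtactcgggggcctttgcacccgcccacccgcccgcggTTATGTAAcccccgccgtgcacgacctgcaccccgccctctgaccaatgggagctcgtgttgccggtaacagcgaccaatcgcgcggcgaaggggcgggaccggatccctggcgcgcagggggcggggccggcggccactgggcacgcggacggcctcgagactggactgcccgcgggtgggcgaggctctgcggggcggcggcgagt
The Arntl window shown holds 2 ROR element matches, its other window 1 and that of Nfil3 1. Those of Npas2 and Per3 hold 0, and 8.29% of all windows hold a match. The Per3 window holds 2 D-box matches, a motif in 6% of windows, and those of Arntl, Npas2 and Nfil3 hold 0. The E-box CACGTG, in 7.15% of windows, has no match in the windows of Arntl, Npas2, Nfil3 or Per3.
Zbtb16, a transcription factor known to be induced by glucocorticoids and by day and fasting signals, was at 137, 97.8 and 178 in day 4 libraries and 375, 306 and 385 in day 3 libraries (-1.40, limma's adjusted p = 0.0393). The call held in 6 of 17 alternatives, and it was at 252 to 333 at day 5.

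**Figure D4:**
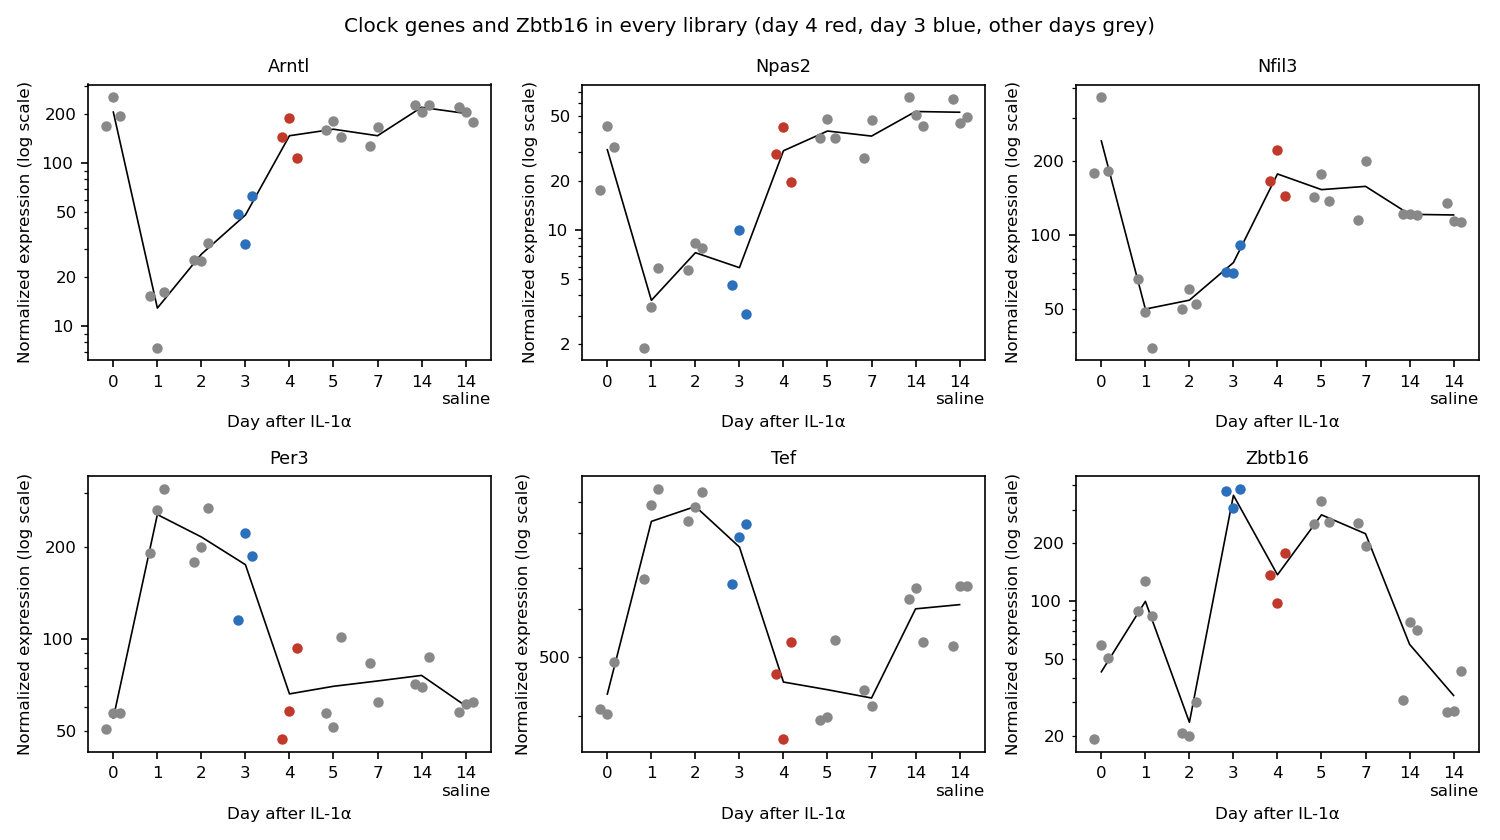
Normalized expression of 5 clock genes and Zbtb16 (vertical axes, log scale) in every library by day after IL-1α (horizontal axis, with saline at day 14 last), day 4 in red and day 3 in blue, with the line through group means. Arntl, Npas2 and Nfil3 were lower in every library of days 1 to 3 than in the day 4 libraries, while Per3 and Tef were higher.

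Among the lists the sterol genes had the most members that fell. Of 24 genes of sterol synthesis and uptake 4 fell and 0 rose (4 and 0 with the study's exclusions), 2 of 24 had a positive change, and the median was -0.55. In 16 of 24 (66.7%) all day 4 libraries lay below all day 3 libraries. That share was 7.39% over all genes tested, of which 0.28% fell. In this list 5 members, Sqle, Idi1, Cyp51 and Fdps among them, were set apart high at day 3. For these the day 3 level differs from all other days.
Insig1, which holds the sterol sensor in the endoplasmic reticulum and is itself a target of SREBP, was not set apart. It was at 235, 196 and 234 in day 4 libraries and 359, 1024 and 695 in day 3 libraries, a log2 fold change of -1.52 ± 0.26 (SE, limma's adjusted p = 0.00224). Sqle, squalene epoxidase, had a change of -1.47 and Idi1, isopentenyl diphosphate isomerase, one of -1.19 (limma's adjusted p = 0.00194 and 0.0006). Day 3 replicate 2 was the highest of all 6 libraries in Insig1, Sqle and Idi1. Hmgcs1, the synthase at the entry of the pathway, was at 429.6 to 599 in day 4 libraries and 678 to 887 in day 3 libraries, a change of -0.68 that passed the adjusted p (limma, 0.00567) and not the fold.
In the list of fatty acid and lipid synthesis 2 of 27 genes fell, beside 0.28% of all genes tested, and the median was 0.00. Acss2, which makes acetyl-CoA from acetate, was at 71.1, 60.3 and 64.5 in day 4 libraries and 212, 180.1 and 99.9 in day 3 libraries (-1.25, limma's adjusted p = 0.00167). Acacb, an acetyl-CoA carboxylase, was at 64.7 to 98.2 in day 4 libraries and 181 to 350.2 in day 3 libraries (-1.44, limma's adjusted p = 0.0101). Acacb is among the genes set apart high at day 3, while Acss2 is not. Scd2, a desaturase gene named in the study, was at 1881 to 2380.4 in day 4 libraries and 2139 to 6649 in day 3 libraries (-0.94, limma's adjusted p = 0.173). Fasn, the fatty acid synthase, had a change of -0.17 (limma's adjusted p = 0.886).
The promoter of Idi1 (RefSeq, GRCm38.p6, chr13:8885356-8885655, plus strand), chosen after its values were seen, is shown with its CCAAT boxes in capitals (ATTGG on this strand), since NF-Y is a known partner of SREBP on sterol genes.
Idi1: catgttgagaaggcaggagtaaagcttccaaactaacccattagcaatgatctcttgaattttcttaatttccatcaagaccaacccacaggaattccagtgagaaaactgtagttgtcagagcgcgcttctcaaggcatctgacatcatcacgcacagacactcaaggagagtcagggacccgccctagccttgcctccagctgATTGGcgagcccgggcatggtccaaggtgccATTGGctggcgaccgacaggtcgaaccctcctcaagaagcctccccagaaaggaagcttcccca
It holds 2 CCAAT matches, and the windows of Insig1, Acss2 and Acacb hold 1 each. The sterol element TCACNCCAC, searched on both strands, is in 1.24% of all windows and in none of these 4.

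Of 29 secreted lacrimal product genes 2 fell and the median was -0.20. Of all genes tested 0.28% fell. All day 4 libraries lay below all day 3 libraries in 4 of 29 (13.8%) and above them in 3 of 29 (10.3%). Over all genes these shares were 7.39% and 8.58%. The mean log2(value + 1) of the list was 12.20 to 12.74 in day 4 libraries and 12.84 to 13.26 in day 3 libraries. Its summed expression overlapped, at 3412910 to 4669370 in day 4 libraries and 2967720 to 4047770 in day 3 libraries. The genes that fell, Esp31 and Esp24, encode exocrine gland-secreted peptides, which act as pheromones. With the study's exclusions the count was also 2, with Esp36 (limma's adjusted p = 0.0469) in the place of Esp24 (0.0996). Esp31 was at 6425 to 13738 in day 4 libraries and 13200 to 48257 in day 3 libraries, so that the days overlapped (-1.53, limma's adjusted p = 0.0285). Esp34 of the same cluster on chromosome 17 was at 255, 198 and 207 in day 4 libraries against 728, 430.4 and 1068 in day 3 libraries (-1.66, limma's adjusted p = 0.00843). Members of the Esp, Scgb and Mup families are near-identical, RSEM divides reads between them, and single members are uncertain. The summed expression of 14 Esp genes, at 223300 to 407371 in day 4 libraries and 261554 to 439576 in day 3 libraries, overlapped. The same holds for Mup5, with a mean of 12.9 in day 4 libraries and 306 in day 3 libraries (limma's adjusted p = 0.0273), since the 21 Mup genes together were at 2930 to 3717 in day 4 libraries and 3145 to 4499 in day 3 libraries. Mup9 rose, with at most 35.4 in day 4 libraries and at most 4.08 in day 3 libraries and no overlap (limma's adjusted p = 0.000475). Scgb2b17 fell, at 0.841 to 1.27 in day 4 libraries and 9.07 to 90.8 in day 3 libraries (limma's adjusted p = 0.0384, and 0.0618 with the study's exclusions), a call that held in 5 of 16 alternatives. Esp24 was at 0 to 1.98 in day 4 libraries and 4.45 to 53.9 in day 3 libraries (limma's adjusted p = 0.0439, a call that held in 5 of 17 alternatives).
Cyp2a5, a cytochrome P450 that oxidizes coumarin and nicotine, was at 1529, 851 and 1718 in day 4 libraries and 4239.6, 3837 and 3595 in day 3 libraries, a log2 fold change of -1.57 ± 0.23 (SE, limma's adjusted p = 0.00038). Its level over the series was highest at day 1, at 12347 to 18273. Cyp2b19, a P450 of epidermis, was at 62.2 to 112 in day 4 libraries and 189 to 404 in day 3 libraries (-1.63, limma's adjusted p = 0.0106). A2ml1, a protease inhibitor gene among the most abundant that rose and chosen after its values were seen, was at 14505, 13121 and 10411 in day 4 libraries and 5218, 4537 and 4500 in day 3 libraries (1.41 ± 0.20 SE, limma's adjusted p = 0.000305). F5, coagulation factor V, chosen in the same way, was at 632 to 698 in day 4 libraries and 255 to 320.2 in day 3 libraries (1.18, limma's adjusted p = 9.57e-05).
Mid1, a ubiquitin ligase on microtubules, was at 31.7, 39.9 and 25.8 in day 4 libraries against 6.50, 10.0 and 5.83 in day 3 libraries (2.00, limma's adjusted p = 0.00119). Its neighbour on chromosome X, Gm21887, is a gene set apart at day 3. Pon1, a paraoxonase, was at 11.4 to 31.7 in day 4 libraries and 1.02 to 7.43 in day 3 libraries (2.08, limma's adjusted p = 0.0343, lost at 0.119 with the study's exclusions). Smim5, a small membrane protein, was at 10.6 to 12.9 in day 4 libraries and 25.5 to 36.7 in day 3 libraries (-1.25, limma's adjusted p = 0.0239).

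The genes set apart at day 3 number 58, 17 lower and 41 higher in each day 3 library than in all 20 libraries of the groups other than days 3 and 4, with a limma contrast past both thresholds. They were chosen with the day 3 libraries, so their values at day 4 against day 3 are given as a description. Zhx2, Alad, Hdhd3, Wdr31, Arl2bp and Mfap1a were picked for print after their values were seen. Zhx2 (ENSMUSG00000071757.6, chr15:57694665-57839832 of GRCm38) encodes a transcriptional repressor whose low expression is a known inherited trait of the BALB/cJ substrain. It was at 100.3, 97.8 and 83.3 in day 4 libraries and 7.43, 10.0 and 8.16 in day 3 libraries, and at 72.9 to 133 in the other 20. The labels give the strain as BALB/c without naming a substrain, and the methods of the study give The Jackson Laboratories as the vendor. Whether the day 3 mice differ in substrain from the others was not tested. If they do, substrain and day cannot be told apart in any gene compared here, the genes kept included. Alad, an enzyme of haem synthesis, was at 69.8 to 80.7 in day 4 libraries and 229 to 287 in day 3 libraries, and its neighbours on chromosome 4, Hdhd3 and Wdr31, were set apart in the same direction (Wdr31 with no call at day 4 against day 3). Arl2bp was at 60.3 to 68.5 in day 4 libraries and 236 to 256 in day 3 libraries, and Mfap1a, a splicing factor gene, at 46.0 to 60.9 in day 4 libraries and 219 to 234 in day 3 libraries.
By size of the fitted change the first genes were Gm38226, listed at 0 in day 4 libraries and at 69.0 to 166 in day 3 libraries, and Mup10, at 45.9 to 72.1 in day 4 libraries and listed at 0 in day 3 libraries. Zfp973 and Zfp965, of a cluster of zinc finger genes on chromosome 2, were at 32.0 to 52.0 and 19.5 to 48.6 in day 4 libraries and at 0 to 1.42 and 1.00 to 1.53 in day 3 libraries. Shisa7, which lies beside Isoc2b, another gene set apart high, was at 8.93 to 20.3 in day 4 libraries and 87.8 to 122 in day 3 libraries. The others named by size were Gm21887, Gm37917, Gm8978 and Scgb2b12. Gm14743, beside Obp1a on chromosome X, was at 1022740, 604915 and 755815 in day 4 libraries and 44871, 59503 and 108508 in day 3 libraries. Summed with Obp1a, Obp1b and Gm5938, whose reads it may share, it came to 2903720 to 4411770 in day 4 libraries and 2062330 to 2899050 in day 3 libraries.
Genes with known roles in repair or metabolism were also in this set. Mmp3 was at 234, 219 and 187 in day 4 libraries and 50.2, 62.3 and 85.7 in day 3 libraries, and Cmpk2, a nucleotide kinase induced by interferon, at 46.6 to 57.1 in day 4 libraries and 18.6 to 27.8 in day 3 libraries. For these, as for Sqle, Idi1 and Acacb, the day 3 level was beyond that of uninjured glands and of every other group.

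**Figure D5:**
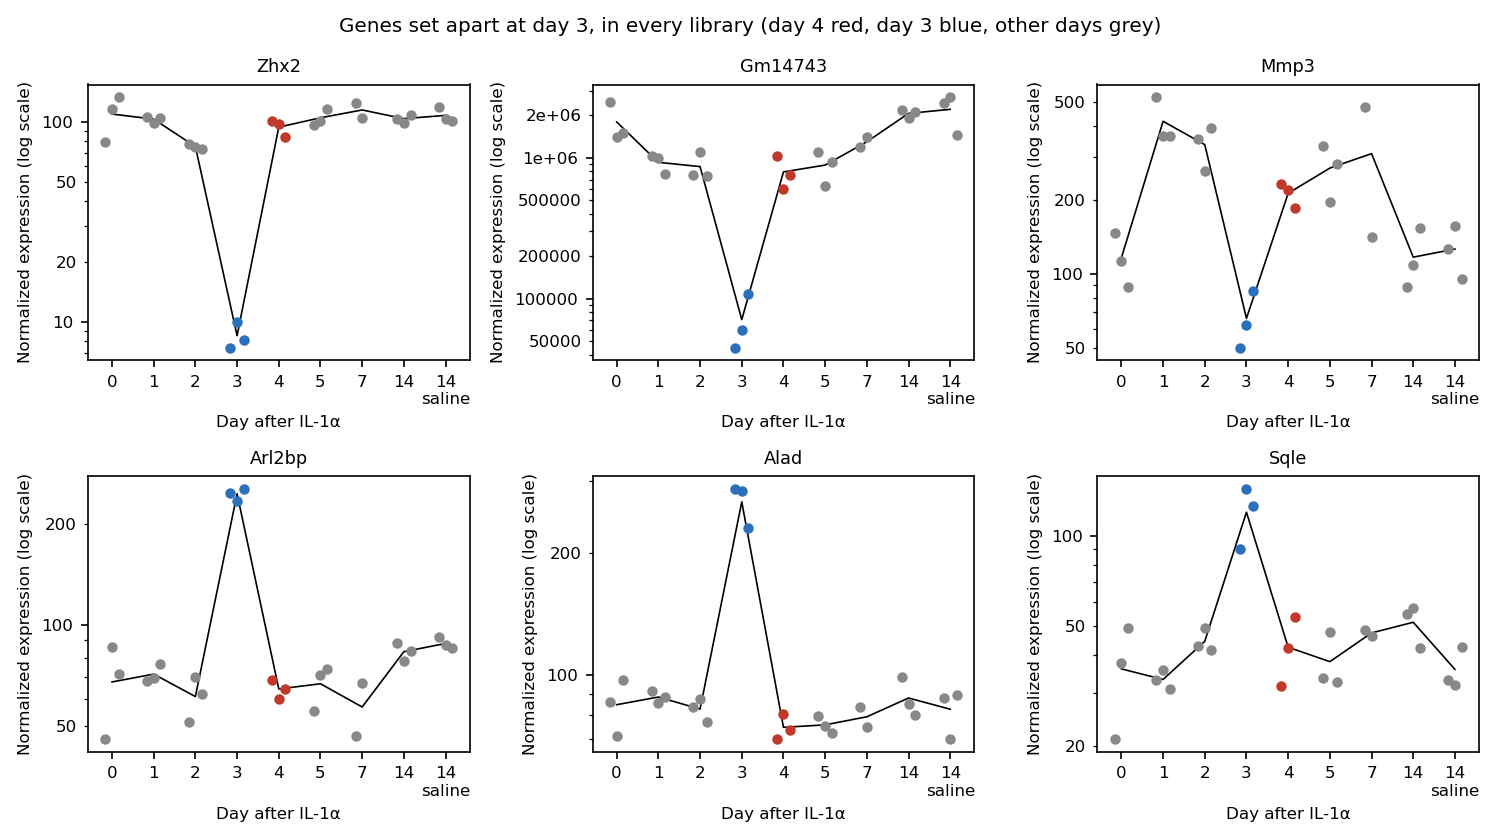
Normalized expression of 6 genes set apart at day 3 (vertical axes, log scale) in every library by day after IL-1α (horizontal axis, with saline at day 14 last), day 4 in red and day 3 in blue, with the line through group means. Zhx2, Gm14743 and Mmp3 were lowest and Arl2bp, Alad and Sqle highest in the 3 day 3 libraries, which were chosen for this.

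Beside other days, which share libraries with the comparison, 140 genes were higher and 1070 lower at day 3 than at day 2, 79 higher and 580 lower at day 4 than at day 2, and 0 passed in either direction between days 5 and 4 (limma, 626 at an unadjusted p under 0.05). Against uninjured glands 267 genes were higher and 71 lower at day 3, and 739 higher and 27 lower at day 4. Interferon-stimulated genes had a median change of -2.02 (log2) at day 3 against day 2 and 0.33 at day 5 against day 4. Spindle genes had medians of -0.99 and 0.03 in these comparisons, with 45 of 59 higher at day 4 than in uninjured glands and 4 of 59 at day 3. Fibrillar collagens had medians of -0.77 and 0.69. Sterol genes had medians of 0.59 and 0.01.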

How the data were processed

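Whole lacrimal glands of 27 mice were profiled by stranded mRNA sequencing, and 26 libraries have values; day 7 replicate 2 was not analysed here. The authors aligned reads to mm10 with STAR, counted genes with RSEM and normalized with DESeq2, with versions not given in the sources used here. The deposited values are a signal per gene, the authors' RSEM estimated counts divided by 1 factor per library, and 75.2 to 81.7% of low values lay on whole steps, so reads were not recovered and no count test was run. Names and coordinates are from GENCODE for GRCm38 (42462 of 43346 identifiers matched, 884 without a name).

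Genes that reached 10 in 2 or more libraries were transformed to log2(value + 1) and fitted by limma 3.58.1 (R 4.3.3) over all 26 libraries, with a mean per group, a variance trend (17 residual degrees of freedom, 6.03 from the prior) and Benjamini-Hochberg adjustment over 13908 genes. The added 1 understates folds of low genes. In simulated data of these 13908 genes, 47% of 2-fold and 96% of 4-fold changes between days 4 and 3 were called, and 10 unchanged genes were called too. The comparison, the lists and the genes set apart were chosen with earlier results of these data known. Named genes are the 10 largest changes in each direction among called genes without overlap, outside the set-apart genes and with a mean of at least 20 in the higher day, leaving out predicted genes (Gm numbers, Rik names) and pseudogenes, up to 4 called members a list in each direction, genes the study names, and the 5 largest set-apart genes in each direction. Others are said to be chosen after their values were seen, or are uncalled members central to a list. Replicates are separate mice. Promoters are RefSeq windows of GRCm38.p6. Some genes the rule names are not reported here.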

Additional observations from a re-analysis of the deposited data

How the results depend on the processing

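Against 65 genes higher and 39 lower (104 in all), the counts were 137, 40 and 177 with the study's exclusions, 13, 17 and 30 with only days 3 and 4 in the fit, 26, 33 and 59 with libraries scaled to totals, and 42, 42 and 84 without a filter on low values. With the adjusted p alone they were 97, 92 and 189. With array weights they were 103, 45 and 148. Without the genes set apart at day 3 the main fit gave 54, 17 and 71. Leaving out 1 library gave 28 to 97 higher, 31 to 40 lower and 59 to 137 in all. The share of higher genes among those called, 62.5%, was 44.1% with scaling to totals. Chosen after seeing the data, leaving out day 2 replicate 3 and day 7 replicate 1 gave 133, 45 and 178, and leaving out day 4 replicate 1 and day 3 replicate 2 gave 80, 34 and 114. With the replicate block the counts were 65, 39 and 104, of which 60 and 37 genes were shared with the main calls. The numbers mark different mice, and correlations of same-numbered deviations between the days were 0.17, -0.20 and -0.05, so the samples share only a number. The cause of these shifts was not tested, other than fewer libraries in some fits. None of 70 named genes changed direction in 17 alternatives. Of the 59 of these that were called, 9 kept the call throughout. With 3 mice a day and 47% of 2-fold changes recovered in simulated data, changes near the threshold are often missed. Substrain and hour of excision are not given in the sources used here, and cell composition was not part of the data analysed here.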

Other observations

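Several lists had no member past the test at day 4 against day 3, also with the study's exclusions. Chemokines and their receptors (30 tested) had a median log2 fold change of 0.58, and MHC class I presentation genes (21 tested) one of 0.34. EGF, FGF and IGF signalling genes (30 tested) had a median of 0.14, and genes of epithelial and gland development (30 tested) one of -0.03. Genes of folding in the endoplasmic reticulum (26 tested), the machinery that handles secreted protein, had a median of -0.12, and those of water and ion transport (24 tested) one of -0.14. Heat shock genes (16 tested) had a median of 0.19 and immediate early genes (21 tested), which respond to handling of tissue, one of 0.18. The medians of salivary gland genes (-0.38) and skeletal muscle genes (-0.41) rested on single libraries. For salivary genes it was -2.14 without day 3 replicate 1, -1.96 without day 4 replicate 3. Its sign turned with day 3 replicate 2 left out (0.13) and with day 4 replicate 2 left out (0.08). For muscle genes it was 0.05 without day 3 replicate 1. In all, 26 of 43 lists had no member called.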
